A study of Homo sapiens with 22 samples.

Results

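Estrogen receptor alpha binding at its own gene was followed through the peaks that overlap chr6:151950000-152450000 (GRCh37), a window of 500 kb around ESR1, in 20 peak lists. The window was set by position, so no measured value chose the peaks within it, though the locus was chosen with earlier results of these data known. It held 104 of 356467 peaks, and peaks that overlapped by at least 1 bp merged into 19 of 93612 regions. The 10 regions with peaks in the most libraries are called sites 1 to 10 in genome order, and the other 9 regions had a peak in 1 library (5 regions), 2 libraries (3 regions) or 3 libraries (1 region).

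Estrogen receptor alpha, encoded by ESR1, is a nuclear receptor that binds estradiol in its ligand-binding domain, pairs with a second receptor molecule and attaches to estrogen response elements in DNA, often far from the promoters it acts on. In many estrogen-responsive cells the receptor also binds near its own gene. Control of that gene's expression by the receptor is called autoregulation, and binding alone does not show it. D538G replaces an aspartate with a glycine in the ligand-binding domain, and such substitutions are known for receptor activity without added hormone.

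The cells were Ishikawa, an endometrial adenocarcinoma line, and every clone carried a FLAG tag on ESR1 that the precipitating antibody recognized. Cells of all groups were kept for at least 5 days in medium free of phenol red and with stripped serum, and were then exposed for 1 h to 10 nM estradiol (E2) or to the solvent DMSO at 0.1%. The wild-type (WT) groups had 4 E2 and 4 DMSO libraries from 2 clones, and the D538G groups had 6 E2 and 6 DMSO libraries from 3 clones, with 2 replicates per clone and treatment. Each clone is 1 derived line, so its libraries share that line, and nothing in the labels says that the replicates came from separate experiments. The p-values below therefore measure the spread between these libraries, which may be technical in part. Genotype belongs to the clone, yet the tests between genotypes treated libraries or pairs of the same clone as separate units. The comparisons ask how the mutation affects binding, here at 1 locus.

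Lists ranged from 5757 to 35344 peaks in the WT E2 group, from 45 to 29118 in the WT DMSO group, from 1977 to 49223 in the D538G E2 group and from 1619 to 54903 in the D538G DMSO group. Fewer reads, weaker enrichment and fewer bound sites cannot be told apart from a list length. The authors' peak names in the D538G E2 list of clone 2 replicate 1 hold the letters Ctl, which otherwise stand only in DMSO lists. That library kept the group its labels give, and the differences in peak number, share and percentile that include it are also given without it and its DMSO partner. Signal values are the authors' own, and they serve here to order the peaks of each list, rank 1 being the strongest.

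No sequence of the peaks themselves could be read, because no genome of their build was at hand. As the regulatory sequence of the gene itself, RefSeq gives 6 promoters of 300 bases for ESR1 (GRCh38.p14). Their coordinates belong to another build and cannot be set beside the peaks, so no peak is placed at or away from a promoter here. Each promoter was searched on both strands for the stretch closest to the palindrome GGTCANNNTGACC, the textbook form of an estrogen response element without its outer bases. Promoters 2 and 3 are shown because promoter 2 is the only one of the 6 with a GGTCA half-site on either strand and promoter 3 has as many matching bases without one. Capitals mark the bases that match the palindrome.
ESR1 promoter 2, chr6:151690490-151690518, GRCh38.p14, + strand: aatttcatGGTCAtaacagCCtcctgtct
ESR1 promoter 3, chr6:151805517-151805545, GRCh38.p14, + strand: gccacactGcTCcctgTGAgCagacagca
Both stretches match 7 of 10 bases, and 59.8% of 35116 promoters of the same length hold a stretch at least as close. The best match was 7 of 10 bases in promoter 4 and 6 of 10 in promoters 1, 5 and 6, a closeness that 99.4% of promoters reach. A GGTCA half-site stands in 37.4% of promoters. These letters describe the promoters only and say nothing of where the receptor bound.

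The named sites lay in 4 stretches. Site 1, at chr6:152001562-152003188, stood alone at one end. Sites 2 to 5 lay 91.0 to 101.6 kb from it, at chr6:152093188-152093641, chr6:152095185-152095804, chr6:152102594-152103159 and chr6:152103710-152104143. Sites 6, 7 and 8, at chr6:152125535-152127084, chr6:152128433-152129710 and chr6:152142181-152142622, followed at 123.9 to 140.0 kb. Sites 9 and 10, at chr6:152280206-152280567 and chr6:152289681-152290180, made the far stretch, 278.0 and 287.6 kb from site 1. All coordinates are 1-based GRCh37 as read from the lists. Whether a site is exonic or intronic was not determined, since the gene table at hand is of another build. In that table's order, CCDC170 comes before ESR1 and SYNE1 after it.

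**Figure D1:**
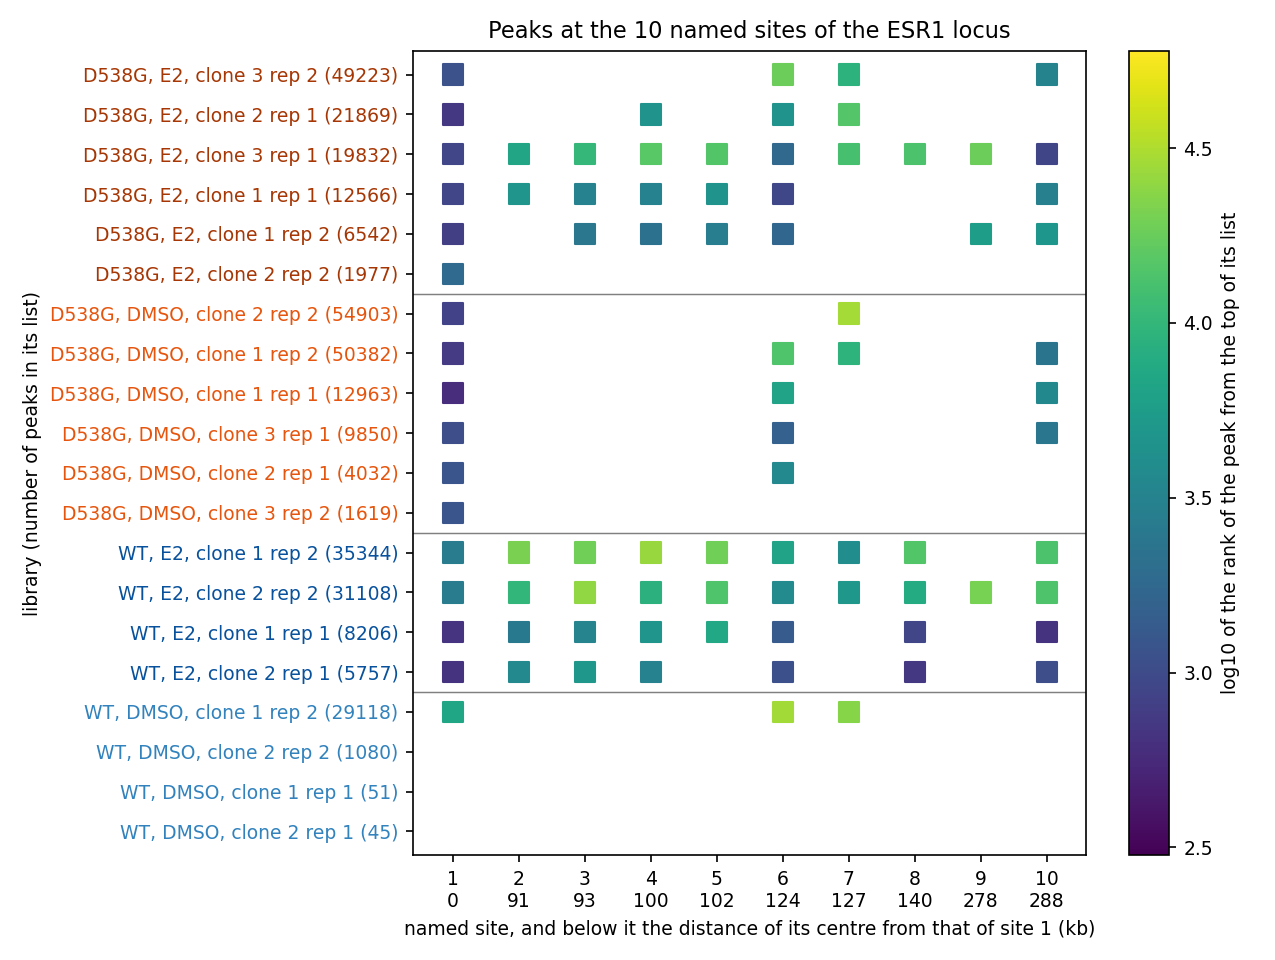
Each square is a library (vertical axis, with its number of peaks) that has a peak at a named site (horizontal axis, with the distance in kb from site 1), coloured by log10 of the peak's rank within its list. Site 1 is filled in 17 of 20 libraries, while sites 2 to 5, 8 and 9 are empty in all 10 DMSO libraries.

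Among 5023 tiles of 500 kb that hold any region, the median tile has 8 regions and the quartiles are 4 and 19. The ESR1 window has 19, and 25.6% of tiles have at least as many. By number of regions alone the window is therefore not an extreme one. Within 100000 bp outside it lay 4 regions. The nearest, 9748 and 12336 bp before its start, had peaks in 3 and 4 libraries, all of them E2 libraries, and another, 85609 bp before it, had a peak in 1 WT E2 library. The most shared lay 94778 bp after its end, with peaks in 2 WT E2, 4 D538G E2 and 2 D538G DMSO libraries.

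Site 1 was the most widely shared position of the locus, with a peak in 17 of 20 libraries. It was missing only from the 3 WT DMSO lists of 45, 51 and 1080 peaks. Among all 93612 regions, 601 (0.642%) have a peak in at least as many libraries. In the WT E2 libraries its rank was 666 and 2725 in clone 1 and 649 and 2694 in clone 2. The single WT DMSO library with the peak, clone 1 replicate 2, had it at rank 6865. That is the highest rank number of the site in any list that has it, and by percentile 3 D538G lists had it lower, as given below.

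In D538G cells site 1 had a peak with and without E2 in all 12 libraries. Under DMSO the rank was lowest at 584, had a median of 944 and reached 1210. Under E2 it was lowest at 711, had a median of 908.5 and reached 1827. The 2 ranges overlapped between 711 and 1210. Site 1 held the strongest peak of the locus in 15 of the 17 libraries with any peak there. The exceptions were WT E2 clone 1 replicate 1 and D538G E2 clone 3 replicate 1, where site 10 led at ranks 653 and 895 with site 1 close behind at 666 and 908.

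A rank reads differently in lists of different lengths, so the percentile within the list (100 at the top) is given too. The site 1 peak stood at 88.7 to 92.3 in the WT E2 lists and at 76.4 in the WT DMSO list that had it. It stood at 87.7 to 97.7 in 5 of 6 D538G E2 lists and at 7.64 in clone 2 replicate 2, a list of 1977 peaks. In D538G DMSO lists it ranged from 25.3, in a list of 1619 peaks, to 98.5. A percentile of 70.1 stood in the D538G DMSO list of 4032 peaks. The 3 low percentiles thus belong to short lists, in which the rank cannot exceed the list length, and ranks in lists of such different lengths do not show that the site was equally strong.

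**Figure D2:**
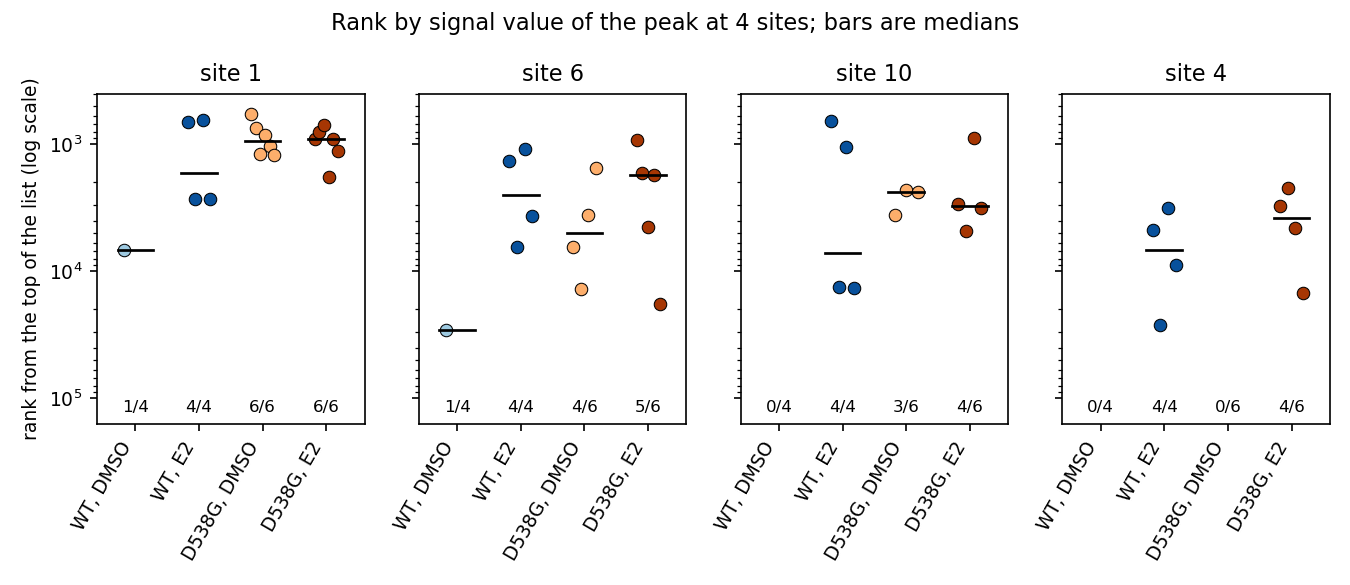
Points are libraries with a peak at the site, placed by the rank of the peak from the top of its list (log axis, strongest upward), with group medians as bars and the number of libraries with a peak over the number in the group below. Site 1 stays between rank 584 and 1827 in all 12 D538G libraries, and site 4 has no DMSO point in either genotype.

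The summit, the position of highest signal within a peak, was steady at most sites. For the strongest peak of each library at a site, it moved within 33 bp at site 5, 79 bp at site 10, and 81 bp at both site 4 and site 8. At site 1 it moved within 313 bp, from 152002165 to 152002478, and the D538G DMSO libraries alone covered 311 bp of that. The WT DMSO library with the site also had a second peak there, with its summit at 152002905. WT E2 summits at site 1 covered 161 bp and D538G E2 summits 175 bp. Their positions, 152002210 to 152002371 and 152002165 to 152002340, overlapped with each other and with those under DMSO.

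Site 6 was the second most shared position, with a peak in 14 libraries, and it held 2 places of highest signal. Summits from 152125849 to 152125959 came from 12 libraries: 4 WT E2, 4 D538G E2 and 4 D538G DMSO, and no WT DMSO library. Summits from 152126727 to 152126900 came from 6 libraries: 2 WT E2, 1 WT DMSO, 2 D538G E2 and 1 D538G DMSO. The shortest list with the first place had 4032 peaks and the shortest with the second had 21869. The only WT DMSO peak at site 6 was at the second place, at rank 29065 of 29118.

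By rank, site 6 stood at 1098 to 6515 in the 4 WT E2 libraries and at 932 to 18134 in 5 of 6 D538G E2 libraries. In 4 of 6 D538G DMSO libraries its ranks were 1533, 3621, 6494 and 13889. These ranges overlap. The D538G DMSO libraries without a peak at site 6 were clone 2 replicate 2, with 54903 peaks the longest list of all, and clone 3 replicate 2, with 1619. List length therefore did not order the presence of site 6 in that group.

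**Figure D3:**
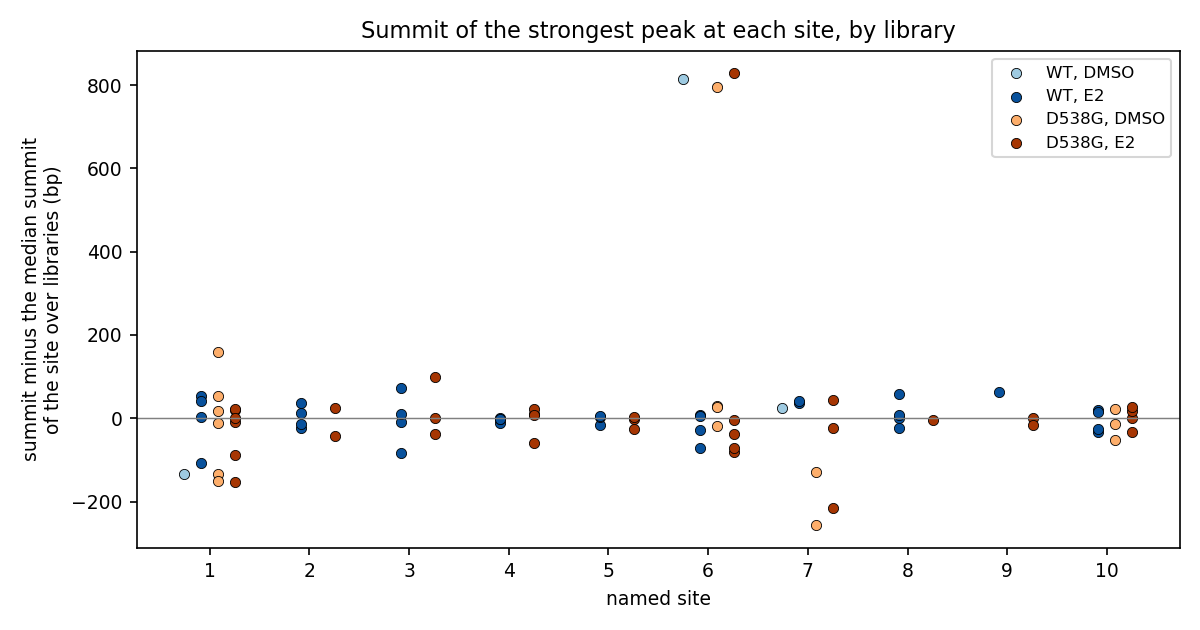
Each point is the summit of the strongest peak of a library at a named site (horizontal axis), as its distance in bp from the median summit of that site over libraries (vertical axis), coloured by group. Site 6 has a second set of summits far above the others, while sites 4, 5, 8 and 10 stay within 81 bp.

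Sites 2 to 5 had peaks in E2 libraries of both genotypes and in none of the 10 DMSO libraries. Of the 4 sites, WT E2 libraries held 4 in both clone 1 replicates and in clone 2 replicate 2, and 3 in clone 2 replicate 1. Among D538G E2 libraries, clone 1 held 4 and 3, clone 2 held 1 and 0, and clone 3 held 4 and 0. The D538G libraries were thus uneven, within clone 3 as well as between clones. The DMSO lists that lacked all 4 included lists of 29118, 50382 and 54903 peaks, longer than most E2 lists that had them.

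Site 4 was the most frequent of them, with a peak in 4 of 4 WT E2 libraries and in 4 of 6 D538G E2 libraries. Its WT ranks were 4709 and 26675 in clone 1 and 3174 and 8927 in clone 2. Its D538G ranks were 3081 and 2209 in clone 1, 4568 in clone 2 replicate 1 and 15003 in clone 3 replicate 1. The ranks of the genotypes overlapped. The clone 2 replicate 1 library is the one whose peak names hold Ctl, and site 4 has a peak in 3 other D538G E2 libraries. Were that library a DMSO one, site 4 would have a peak under DMSO, so its absence there rests on the label. Site 2 had a peak in 4 WT and 2 D538G E2 libraries, site 3 in 4 and 3, and site 5 in 3 and 3. Ranks at these 3 sites ran from 2434 to 24951, below site 1 in every library.

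For scale, of 7373 regions found in 6 or more of the 10 E2 libraries, 808 (11.0%) had none in a DMSO library. In the ESR1 window 4 of 7 such regions had none. The limit of 6 libraries was taken from sites 2 to 5 themselves, so these counts are a description. Over the whole window, 10 of 19 regions (52.6%) had peaks in E2 lists alone and 4 of 19 (21.1%) in DMSO lists alone. Among all 93612 regions the percentages were 20.1 and 33.0.

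Site 8 had a peak in all 4 WT E2 libraries and in 1 of 6 D538G E2 libraries. The WT ranks were 903 and 14279 in clone 1 and 713 and 7627 in clone 2. The D538G peak, in clone 3 replicate 1, was at rank 13282 and at percentile 33.0 of its list, below the WT percentiles of 59.6 to 89.0 although its rank number lies among theirs. In 2 WT libraries site 8 was thus among the strongest peaks of the locus, while 5 of 6 D538G E2 lists had no peak there. Those 5 lists held 1977 to 49223 peaks. Site 9 was a weaker position, with a peak in 1 WT and 2 D538G E2 libraries at ranks 5565 to 20354.

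Site 10 had a peak in all 4 WT E2 libraries, in no WT DMSO library and in D538G libraries of both treatments. The WT E2 ranks were 653 and 13311 in clone 1 and 1055 and 13532 in clone 2. The D538G E2 ranks were 2967 and 4852 in clone 1 and 895 and 3210 in clone 3. The D538G DMSO ranks were 3593 and 2306 in clone 1 and 2386 in clone 3. Clone 2 of D538G had no peak at site 10 in any of its libraries, and the other D538G clones had one in all but 1, the DMSO clone 3 replicate 2 list of 1619 peaks. By percentile within the list, site 10 stood at 72.3 to 95.4 in those D538G DMSO libraries and at 56.5 to 92.1 in WT E2, so the groups overlapped.

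Site 7 went with list length. It had a peak in all 8 of the longest lists, of 19832 to 54903 peaks, and in none of the other 12, of 45 to 12963 peaks. Of 4069 regions found in exactly 8 libraries, 279 (6.86%) have this pattern. The 8 libraries comprised 2 WT E2, 1 WT DMSO, 3 D538G E2 and 2 D538G DMSO, so both genotypes and treatments were among them.

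Counted over the whole window, E2 libraries of WT clones had 10, 11, 7 and 13 peaks, and WT DMSO libraries had 0, 5, 0 and 0, in the order clone 1 replicates 1 and 2, clone 2 replicates 1 and 2. The groups did not overlap, with means of 10.2 ± 2.50 (SD, n = 4) and 1.25 ± 2.50 (SD, n = 4). The difference in mean log10(peaks + 1) was 0.848 (exact two-sided permutation p = 0.0286, the smallest that 4 against 4 allows, adjusted p = 0.0952 over 5 tests), and 4 of 4 pairs had more peaks under E2. Permuted within the pairs of clone and replicate number, the exact p was 0.125, the smallest for 4 pairs. Without the WT DMSO clone 1 replicate 2 library, the only one of its group with peaks here, the difference was 1.04 (exact permutation, adjusted p = 0.0476). The 3 lists with no peak at the locus were also the 3 shortest of the study. When lists were limited to their 1000 strongest peaks, the difference was 0.270 (exact permutation p = 0.429, adjusted p = 0.589), although the WT DMSO lists of 45 and 51 peaks stay shorter than that.

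In D538G clones the E2 libraries had 7 and 7 peaks in clone 1, 5 and 1 in clone 2, and 13 and 4 in clone 3. The DMSO libraries had 3 and 10, 2 and 2, and 3 and 1 in the same order. The groups overlapped, with means of 6.17 ± 4.02 (SD, n = 6) and 3.50 ± 3.27 (SD, n = 6). The difference was 0.205 on the log10(peaks + 1) scale (exact permutation p = 0.225, adjusted p = 0.225), with more peaks under E2 in 4 of 6 pairs and fewer in 2. Without the first-replicate pair of clone 2 it was 0.186 (exact permutation p = 0.373), without D538G E2 clone 3 replicate 1 it was 0.133, and in the 1000 strongest peaks it was 0.109 (exact permutation p = 0.448). Replicate 1 libraries alone differed by 0.382 (exact permutation p = 0.100, the smallest for 3 against 3) and replicate 2 libraries by 0.0278.

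The E2 effect, taken within each clone and replicate number, was 0.848 ± 0.378 (SD, n = 4) in WT and 0.205 ± 0.295 (SD, n = 6) in D538G. The D538G effect was smaller by an amount given as -0.643 (exact permutation of genotype over the 10 pairs, p = 0.0381, adjusted p = 0.0952). This difference does not pass after adjustment. Without WT DMSO clone 1 replicate 2 it was -0.825 (exact permutation p = 0.0119, adjusted p = 0.0298). Leaving out the E2 partner of that library drops the same pair. The value and exact permutation p were then the same, but the adjusted p was 0.0595, because other tests of the family differed. The WT pairs left have DMSO lists of 51, 45 and 1080 peaks, none with a locus peak. The genotype difference was -0.662 without the clone 2 first-replicate pair of D538G (exact permutation, adjusted p = 0.139). Among the 1000 strongest peaks per list the value was -0.161 (p = 0.471 by exact permutation, adjusted p = 0.589).

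Under DMSO the D538G libraries had 1 to 10 peaks at the locus, and 3 of 4 WT libraries had none. The difference of D538G minus WT was 0.389 (exact permutation p = 0.105, adjusted p = 0.173). It was 0.583 without WT DMSO clone 1 replicate 2 (exact permutation, adjusted p = 0.0298), so among single libraries left out the call is made only for that one. The WT DMSO lists left then held 51, 45 and 1080 peaks, each with 0 at the locus. Lists of 45 or 51 peaks cannot show a few locus peaks per 10000, so this call tells little about binding. Under E2 the D538G libraries had 1 to 13 peaks against 7 to 13 in WT. The difference there was -0.254 (exact permutation p = 0.138, adjusted p = 0.173), and the groups overlapped. It was -0.157 without D538G E2 clone 2 replicate 2. In the 1000 strongest peaks of each list the D538G minus WT difference was 0.151 under DMSO (exact permutation p = 0.200) and -0.0104 under E2 (exact permutation p = 1.00). Without the clone 2 first-replicate pair of D538G, the values over whole lists were 0.410 and -0.252.

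**Figure D4:**
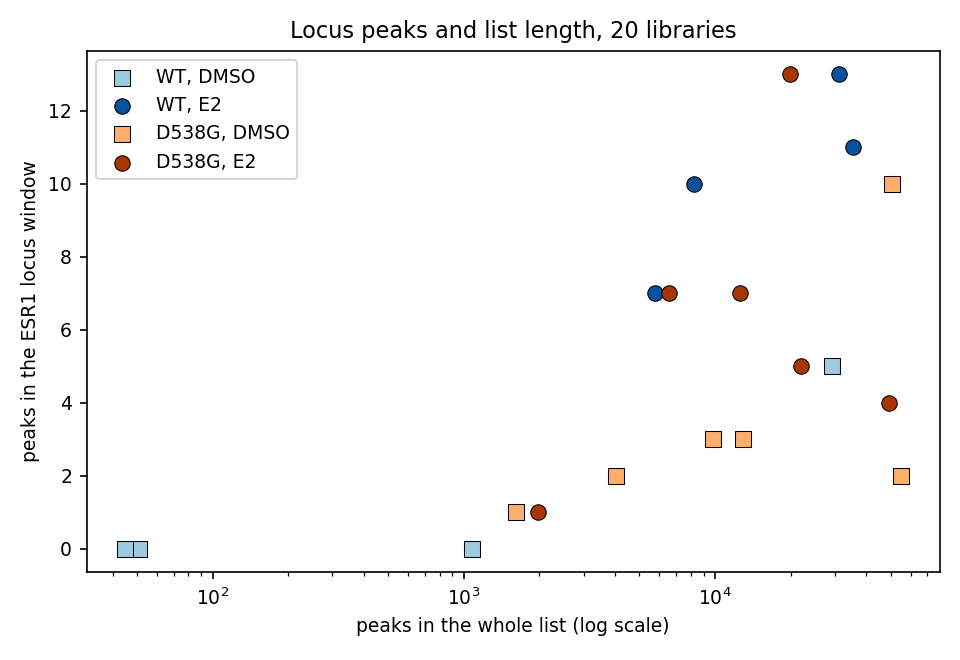
Each point is 1 of 20 libraries, with the number of peaks in its whole list on the horizontal log axis and the number in the ESR1 window on the vertical axis, coloured by group. The 3 WT DMSO libraries with 0 peaks are also the shortest lists, and the longest list, of 54903 peaks, has 2.

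As a share of the list, WT E2 libraries had 12.2, 3.11, 12.2 and 4.18 locus peaks per 10000 and WT DMSO libraries 0, 1.72, 0 and 0, a difference of 7.48 (exact permutation p = 0.0286, adjusted p = 0.0762 over 4 tests). D538G E2 shares ran from 0.813 to 10.7 with a median of 5.31, and D538G DMSO shares from 0.364 to 6.18 with a median of 2.68. Their difference was 2.02 (exact permutation p = 0.262, adjusted p = 0.333). The value was 0.916 without D538G E2 clone 1 replicate 2. D538G minus WT was 2.71 under DMSO (exact permutation p = 0.0381, adjusted p = 0.0762) and -2.75 under E2 (exact permutation p = 0.333, adjusted p = 0.333). The E2 value was -1.32 without WT E2 clone 1 replicate 1, -1.33 without clone 2 replicate 1 and -4.34 without WT E2 clone 1 replicate 2. Without the clone 2 first-replicate pair of D538G the 3 values were 2.96, 2.35 and -2.17. No comparison of shares passed after adjustment. The 3 shares of 0 in WT DMSO came from lists of 51, 45 and 1080 peaks. Lists of 45 or 51 peaks cannot show a share of a few per 10000. The E2 difference in WT and the D538G minus WT difference under DMSO rest in part on these lists. The WT E2 replicate 1 lists, the shorter ones, had the higher shares. Within replicate 1 the D538G minus WT share under E2 was -7.37, and within replicate 2 it was 1.88, the opposite direction.

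The percentile of the strongest locus peak was 88.7 to 92.3 in WT E2, 7.64 to 97.7 in D538G E2 and 25.3 to 98.5 in D538G DMSO. D538G E2 minus DMSO was 0.114 (exact permutation p = 0.989) and D538G minus WT under E2 was -11.4 (exact permutation p = 0.943, adjusted p = 0.989 for both). Neither differs beyond the spread between libraries. The second value turned to 2.98 without D538G E2 clone 2 replicate 2 (exact permutation p = 0.206), and the first lay between -10.7 and 14.5 as single libraries were left out. Without the clone 2 first-replicate pair they were -5.19 and -14.8. With only 1 WT DMSO library holding a locus peak, the other comparisons of this percentile have no test.

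Fisher's exact test was applied to the number of libraries with a peak, for every region of the genome, and no region of the locus passed the Benjamini-Hochberg adjusted threshold of 0.05 in any of the 4 comparisons (0 of 10, 10, 5 and 13 tested). For 4 against 4 libraries Fisher's exact p cannot go below 0.0286, and 2731 of 29233 regions were under 0.05. The smallest adjusted p of that comparison was therefore 0.306, and at this group size not passing tells little about a region. At an unadjusted p under 0.05, E2 against DMSO in WT had 5 of 10 locus regions, sites 2, 3, 4, 8 and 10, each with a peak in 4 of 4 against 0 of 4 libraries (Fisher's exact p = 0.0286, adjusted p = 0.306). Over all regions tested the percentage was 9.34, and both counts include regions found in too few libraries to reach that p. In WT DMSO the lists of 51, 45 and 1080 peaks had no peak in the locus at all. The 0 of 4 therefore rests mainly on the clone 1 replicate 2 list of 29118 peaks. The same comparison in D538G had 0 of 10 against a background of 0.0200%, and its nearest was site 4 with 4 of 6 against 0 of 6 (Fisher's exact p = 0.0606, adjusted p = 1.00). That count was 1 without D538G E2 clone 2 replicate 2 or without clone 3 replicate 2. Site 10, among the 5 in WT, had 4 of 6 against 3 of 6 in D538G (Fisher's exact p = 1.00). Whether single sites respond differently between genotypes was not tested.

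D538G against WT under DMSO had 1 of 5 locus regions, site 1, with 6 of 6 against 1 of 4 libraries (Fisher's exact p = 0.0333, adjusted p = 1.00), against a background of 3.57%. That count became 0 when any 1 of the 3 WT DMSO libraries without the peak (clone 1 replicate 1 and both of clone 2) was left out. Their lists held only 51, 45 and 1080 peaks. Under E2, 1 of 13 locus regions passed unadjusted. It was site 8, less often found in D538G, with 1 of 6 against 4 of 4 (Fisher's exact p = 0.0476, adjusted p = 1.00). The background there was 0.890% less often and 0.325% more often. The count was 2 without D538G E2 clone 1 replicate 1 or without clone 3 replicate 1. Without the clone 2 first-replicate pair, the unadjusted counts stayed 0, 1 and 1 in the comparisons with D538G libraries.

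With both genotypes pooled, a comparison chosen after seeing the data, E2 against DMSO over 10 and 10 libraries gave 5 of 14 locus regions at an unadjusted p under 0.05, sites 2, 3, 4, 5 and 8, against a background of 4.41%. Site 4 had 8 of 10 against 0 of 10 (Fisher's exact p = 0.000714, adjusted p = 0.219), and its peak was present under E2 alone in 8 pairs and under DMSO alone in 0 (exact sign test p = 0.00781, adjusted p = 1.00). These counts for site 4 include D538G E2 clone 2 replicate 1, whose peak names hold Ctl. They rest on its label, and no pooled value is given without that pair. Site 3 had 7 of 10 against 0 (Fisher's exact p = 0.00310, adjusted p = 0.326). Sites 2 and 5 had 6 of 10 each against 0 (Fisher's exact p = 0.0108, adjusted p = 0.483), and site 8 had 5 of 10 against 0 (Fisher's exact p = 0.0325, adjusted p = 0.737). Site 1, with 10 of 10 against 7 of 10, and site 6, with 9 of 10 against 5 of 10, did not pass (Fisher's exact p = 0.211 and 0.141). No region of the genome passed after adjustment, the smallest adjusted p being 0.219.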

How the data were processed

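Chromatin immunoprecipitation sequencing with an anti-FLAG antibody gave 1 peak list for each of 20 libraries. The 2 input libraries were not used here. The submitters' processing notes name Bowtie, MACS2, DESeq2 and hg19, with no versions or roles. Each list holds the peaks of 1 library. The authors deposited a signal value with every peak, and its reference is not given in the sources used here. The deposited lists also give a −log10 p for each peak, which served only for a stricter threshold and an alternative ranking. Peak names in 4 lists (D538G clones 1 and 2, replicate 1) hold the word Input. Read depth is not given in the sources used here, so no counting error can be stated.

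Coordinates were read as GRCh37 and given 1-based. After 5 mitochondrial peaks were set aside, peaks overlapping by at least 1 bp were merged. Numbers of locus peaks were compared as log10(peaks + 1) and as peaks per 10000 of the list, by exact two-sided permutation of library labels on the size of the difference in means. Peak presence was compared by Fisher's exact test, two-sided, over all regions found in 2 or more libraries of the comparison. The p-values were adjusted by the Benjamini-Hochberg method, except those of tests within a single replicate number, which were not adjusted. Python 3.11.15, numpy 2.4.6 and pandas 2.3.3 were used, and the tests were tested on simulated data.

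The named sites are the up to 10 regions of the window with peaks in the most libraries, ties broken by mean percentile, and any region with an unadjusted Fisher p under 0.05, which added none. The members and lists were chosen with earlier results of these data known. For E2 against DMSO with a block, and for the genotype difference in E2 effect, libraries were paired across treatments by clone and replicate number. The labels give the clone as the cell line and tie the replicate number to no shared experiment. With the block, permutation tests of D538G against WT and of the genotype difference permuted genotype within replicate number. Deviations from the group means correlated over 0.1 in 4 of 10 pairs (lowest -0.372, median 0.0477, highest 0.393). Alternatives were leaving out each library, the pairs or the replicate number as a block, a −log10 p of at least 20, and the 1000 strongest peaks of a list. Others were a window changed by 50000 bp on each side, a pseudocount of 0.5, summits extended by 100 bp, and ranking by −log10 p.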

Additional observations from a re-analysis of the deposited data

Results flagged for a closer look

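Of 14 groups of 4 to 6 libraries searched for a library far from the others, 4 results had one, and they came from 2 libraries. How often chance gives such a library was not tested. The WT DMSO library of clone 1 replicate 2 stood apart from the other 3 of its group in the number of locus peaks, 0.778 as log10(peaks + 1) against 0 in the others, and in its share, 1.72 per 10000 against 0. With the other 3 tied at 0, any locus peak in that library would have been flagged. The D538G E2 library of clone 2 replicate 2 stood apart in the percentile of its strongest locus peak, 7.64, which is its site 1 peak, so the percentile of site 1 there is the same 7.64. It is the shortest list of its group, with 1977 peaks. The E2 effect on the number of locus peaks differed between genotypes by -0.643 (exact permutation p = 0.0381), and the adjusted p of 0.0952 does not pass.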

How the results depend on the processing

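Of 763 recomputed values, 727 were counted as unchanged. Of these, 446 were percentages of libraries at named sites, which carry no p-value, and 61 were counts of adjusted calls, all 0. Values that moved to or from 0 also counted as unchanged, such as site 7 under E2, D538G against WT, from 0 to -16.7 percentage points. Lists of at least 5000 peaks, the first-replicate pair of D538G clone 2 left out, and ranks on a −log10 scale were alternatives chosen after seeing the data. The adjusted threshold was newly passed 3 times, each without WT DMSO clone 1 replicate 2. The WT DMSO lists left then held 51, 45 and 1080 peaks, with none at the locus. The genotype difference in E2 effect had the same value without the E2 partner of that library, and did not pass. Leaving out single libraries, the peak number differences ran from 0.783 to 1.04 for E2 in WT, 0.297 to 0.583 for D538G against WT under DMSO, 0.133 to 0.302 for E2 in D538G, -0.326 to -0.157 for D538G against WT under E2, and -0.825 to -0.544 for the genotype difference in E2 effect. Held to the 1000 strongest peaks of each list, all 5 were smaller, at 0.270, 0.151, 0.109, -0.0104 and -0.161 in that order, and none passed. Share differences ran from 6.05 to 9.08 and 0.916 to 2.89 for E2 in WT and D538G, and from 2.10 to 3.27 and -4.34 to -1.32 for D538G against WT under DMSO and E2. The percentile differences ran from -10.7 to 14.5 for E2 in D538G and from -15.0 to 2.98 for D538G against WT under E2. The E2 percentile difference in D538G also reversed to -0.447 with ranks by −log10 p, -0.0394 as −log10 of the rank, -5.19 without the clone 2 pair and -1.40 in lists of at least 5000 peaks. The genotype percentile difference under E2 reversed to 2.65 with a −log10 p of at least 20, to 0.126 as −log10 of the rank and to 2.98 in lists of at least 5000 peaks. The cause was not tested. Leaving out single libraries, site 7 (D538G against WT under DMSO) and site 9 (under E2) each ran from -5.00 to 33.3 percentage points of libraries with a peak.

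Locus regions at an unadjusted p under 0.05 ranged, leaving out single libraries, from 0 to 1 for D538G against WT under DMSO, 1 to 2 under E2, and 0 to 1 for E2 in D538G. In the WT E2 comparison the count was 0 with the replicate block, where 4 pairs cannot go below 0.125, and 0 in the 1000 strongest peaks. D538G against WT gave 0 under E2 with the replicate block and 0 under both treatments in the 1000 strongest peaks, 0 under DMSO with a −log10 p of at least 20, and E2 in D538G gave 1 in lists of at least 5000 peaks. With the replicate block the peak number difference for E2 in WT was 0.848 (exact p = 0.125), and the genotype difference in E2 effect had an exact p of 0.0300 (adjusted p = 0.150). No adjusted call of a region was made in any setting, and with 4 against 4 libraries Fisher's exact p cannot go below 0.0286. Lists of at least 5000 peaks leave 1 WT DMSO library, so comparisons with that group gave no value there.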
